A study of Mus musculus with 12 samples.

Results

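The 4 Notch receptors (Notch1, Notch2, Notch3 and Notch4) and 4 of their ligands (Jag1, Jag2, Dll1 and Dll4) were followed in 12 RNA-seq libraries of mouse cardiomyocyte preparations. They were chosen by gene symbol, and each had 1 row in all 12 count files, so that they make up 8 of the 21493 genes counted. All 8 passed the filter on low counts, which left 13158 genes for testing. On build GRCm38 the receptor genes lie at chr2:26457903-26516663 on the minus strand (Notch1, ENSMUSG00000026923), chr3:98013527-98150361 on the plus strand (Notch2, ENSMUSG00000027878), chr17:32120820-32166852 on the minus strand (Notch3, ENSMUSG00000038146) and chr17:34564268-34588503 on the plus strand (Notch4, ENSMUSG00000015468). The ligand genes lie at chr2:137081456-137116644 on the minus strand (Jag1, ENSMUSG00000027276), chr12:112907819-112929776 on the minus strand (Jag2, ENSMUSG00000002799), chr17:15367354-15376872 on the minus strand (Dll1, ENSMUSG00000014773) and chr2:119325784-119335962 on the plus strand (Dll4, ENSMUSG00000027314).

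The mice were 3 months old and were either wild type for desmin (Des+/+) or lacked it (Des-/-), desmin being the main intermediate filament protein of muscle. Mice of each genotype had either swum as an exercise stress or not, which gave 4 groups of 3 libraries: Des+/+ non-swim, Des+/+ swim, Des-/- non-swim and Des-/- swim. The study's methods name lines of both genotypes that carry GFP under the cardiomyocyte promoter αMHC on a shared inbred background, and state that each library holds cells pooled from several mice. Cells were freed from the heart by perfusion with trypsin and collagenase and harvested at once, with no sorting described. The comparison addresses whether Notch RNA levels in these adult cardiomyocyte preparations, which also hold RNA of other cell types, differ with desmin genotype at rest and under stress.

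Notch signalling passes between touching cells. A Jagged or Delta-like ligand on one cell binds a Notch receptor on its neighbour, the receptor is cut by an ADAM protease and then by γ-secretase, and the freed intracellular domain joins RBPJ and a Mastermind protein in the nucleus to switch on genes such as Hes1, Hey1 and Nrarp. In the heart Notch1 acts in the endocardium and in the forming trabeculae, Notch4 and Dll4 are typical of vascular endothelium, and Notch3 is typical of pericytes and vascular smooth muscle.

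The start regions of 3 members are printed. Of these, Notch1 and Notch2 each passed the main edgeR test in a comparison below, and Notch4 did not. Notch1 and Notch4 had the nearest profiles of any pair of members over the 12 libraries, and Notch2 had the largest genotype difference without swimming. This choice was made after their values were seen. Each line holds the 250 bases before the RefSeq gene start (GRCm38.p6), 5′ to 3′ on the gene's strand, for Notch1 at chr2:26503823-26504072 (minus), Notch4 at chr17:34564045-34564294 (plus) and Notch2 at chr3:98013288-98013537 (plus). Capitals mark the GC box GGGCGG, a site of the Sp1 family, and the TEAD core CATTCC, on either strand.
Notch1: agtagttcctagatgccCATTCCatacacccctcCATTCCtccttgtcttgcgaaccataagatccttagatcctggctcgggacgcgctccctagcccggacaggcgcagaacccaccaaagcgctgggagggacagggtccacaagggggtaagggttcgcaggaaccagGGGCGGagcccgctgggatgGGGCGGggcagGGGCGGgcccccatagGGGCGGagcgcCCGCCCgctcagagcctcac
Notch4: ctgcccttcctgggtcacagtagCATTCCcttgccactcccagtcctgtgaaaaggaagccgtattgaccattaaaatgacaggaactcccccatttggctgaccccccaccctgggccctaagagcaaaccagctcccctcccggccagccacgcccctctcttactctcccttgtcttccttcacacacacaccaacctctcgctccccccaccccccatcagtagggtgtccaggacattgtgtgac
Notch2: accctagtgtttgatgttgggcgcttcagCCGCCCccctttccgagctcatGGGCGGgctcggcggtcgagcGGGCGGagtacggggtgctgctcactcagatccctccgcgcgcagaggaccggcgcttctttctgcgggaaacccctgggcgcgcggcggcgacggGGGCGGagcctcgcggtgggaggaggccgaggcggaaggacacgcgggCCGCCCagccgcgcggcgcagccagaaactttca

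The windows differed in base composition and in the motifs they hold. The Jag2 window (chr12:112929496-112929745, minus), which lies within the first exon of the annotated gene and is not printed, was 87.2% G and C and had 5 GC boxes, of which those starting at -80 and -76 overlap. The Notch1 window was 66% G and C with 5 GC boxes between -78 and -20, and with TEAD cores at -233 and -216. The Notch2 window was 72% G and C with 5 GC boxes, and the Notch4 window was 58.4% G and C with no GC box and a TEAD core at -227. Among the other windows, Notch3 had 4 GC boxes, Dll4 had 2 GC boxes and 1 CCAAT box, 1 of the 2 Dll1 windows had 2 CCAAT boxes, and Jag1 had none of the motifs searched. Over all 32841 RefSeq windows of this length, 32.7% held the GC box, 12.6% the TEAD core and 33.9% the CCAAT box, and the median G and C content was 52.4%. The RBPJ core TGGGAA, present in 21.6% of all windows, was not in the window of any member, nor were TATAAA (12.4% of all windows), CACGTG (6.02%) and the AP-1 site TGACTCA (4.46%). These are matches of letters on both strands and not measured binding sites. The Notch1 and Jag2 windows, and the Dll1 window with the CCAAT boxes, lie inside the longer gene models of the GENCODE annotation. The Notch4, Notch2 and Jag1 windows reach into theirs.

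Reads assigned to genes ran from 4320819 to 12072443 per library, the lowest in Des-/- swim replicate 2, so that 3 reads corresponded to between 0.248 and 0.694 CPM, a level that divides a gene's reads by the TMM-scaled size of its library. Des itself averaged 2367 CPM in Des+/+ non-swim and 1273 CPM in Des+/+ swim, against 59.5 CPM in Des-/- non-swim and 96.5 CPM in Des-/- swim, as the labels state. Cardiomyocyte markers were abundant, with Myh6 at 26160 CPM in Des+/+ non-swim, but all 8 markers on that list were lower in Des-/- non-swim than in Des+/+ non-swim and Myh6 averaged 4710 CPM there. RNA of other cell types was present in every library, with none of the 50 markers at 0 counts in any library. The sum of 12 endothelial markers, led by Kdr at 1291 CPM in Des+/+ non-swim, lay between 5951 and 12609 CPM over the 12 libraries. The sum of 10 mural cell markers, led by Rgs5, lay between 2837 and 5999 CPM. The 10 fibroblast markers, led by Dcn in both Des+/+ groups and by Col3a1 in both Des-/- groups, summed to between 2364 and 3920 CPM in the Des+/+ libraries and to between 4130 and 40595 CPM in the Des-/- libraries. The 10 macrophage markers, led by Lyz2, summed to between 228 and 348 CPM in Des+/+ and between 234 and 4334 CPM in Des-/- libraries. Replicate 3 of both Des-/- groups stood apart, with the highest fibroblast and macrophage sums of their groups, and results that rest on them are given below with and without them. The share of uniquely placed reads in no gene also moved with the groups, at 34.0% to 39.3% in Des+/+ non-swim, 45.9% to 50.4% in Des+/+ swim, 34.2% to 52.3% in Des-/- non-swim and 57.2% to 64.5% in Des-/- swim, and its part in the results was not tested. In bulk libraries, fewer cells of a type and less RNA per cell cannot be told apart.

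Per length of gene, Dll4, Jag2 and Notch4 had the highest levels of the 8 and Notch2 the lowest. In Des+/+ non-swim libraries Dll4, a ligand of the vascular tip cell, averaged 44.4 ± 4.21 RPKM (CPM per kilobase of merged exons, SD, n = 3). Jag2 followed at 34.4 ± 3.96 RPKM, Notch4 at 30.7 ± 3.50 RPKM and Notch3 at 26.8 ± 1.96 RPKM, and neighbours in this run from Jag2 to Notch3 overlapped between libraries. Notch1 averaged 17.5 ± 0.687 RPKM, Jag1 11.95 ± 1.32 RPKM, Dll1 7.81 ± 1.87 RPKM and Notch2 3.28 ± 0.167 RPKM, each below the one before it in every library. Dll4 lay above 93.3% of all genes tested by its mean RPKM, Notch4 above 91.8%, Notch1 above 81.3% and Notch2 above 36.1%.

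The order at its lower end was the same in the other groups, with Jag1, Dll1 and Notch2 in places 6 to 8. In Des+/+ swim libraries Dll4 (73.2 ± 40.8 RPKM) and Jag2 (71.1 ± 12.95 RPKM) were followed by Notch4 (56.2 ± 7.10 RPKM), the neighbours overlapping, and Notch1 (29.6 ± 0.329 RPKM) came before Notch3 (27.4 ± 3.71 RPKM), with overlap. In Des-/- non-swim libraries the order was Dll4 (51.2 ± 11.0 RPKM), Notch4 (43.1 ± 9.20 RPKM), Jag2 (37.4 ± 11.7 RPKM), Notch3 (27.4 ± 7.20 RPKM) and Notch1 (20.01 ± 3.08 RPKM), each overlapping the next. In Des-/- swim libraries it was Dll4 (52.4 ± 16.4 RPKM), Notch4 (50.9 ± 9.25 RPKM), Jag2 (48.6 ± 2.08 RPKM), Notch3 (25.7 ± 18.7 RPKM) and Notch1 (18.7 ± 2.66 RPKM), again each overlapping the next. With the longest transcript as the length, Jag2 came first in both Des+/+ groups and in Des-/- swim, and Notch4 came first in Des-/- non-swim. Notch1 then came before Notch3 in both Des-/- groups. In Des+/+ non-swim that length put Notch1 at 26.3 ± 1.03 and Notch3 at 27.0 ± 1.97 RPKM.

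Of the summed RPKM of the 4 receptors, Notch4 made up 39.2% ± 3.35 in Des+/+ non-swim, 48.3% ± 1.89 in Des+/+ swim, 44.4% ± 8.42 in Des-/- non-swim and 52.8% ± 7.75 in Des-/- swim (SD, n = 3 each). The Notch3 share was 34.3% ± 3.26 in Des+/+ non-swim and 23.5% ± 1.16 in Des+/+ swim, with no overlap between the libraries of the 2 groups. The receptor sum ran from 75.7 to 80.2 RPKM in Des+/+ non-swim and from 105.0 to 125.3 RPKM in Des+/+ swim. The ligand sum ran from 91.3 to 104.2 RPKM in Des+/+ non-swim and from 145.4 to 207.3 RPKM in Des+/+ swim, so that both sums were higher in every Des+/+ swim library. In Des-/- libraries the groups overlapped, with receptor sums of 94.4 to 101.0 RPKM without swimming and 77.7 to 130.1 RPKM after it, and ligand sums of 84.5 to 133.2 and 94.8 to 137.9 RPKM.

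**Figure D1:**
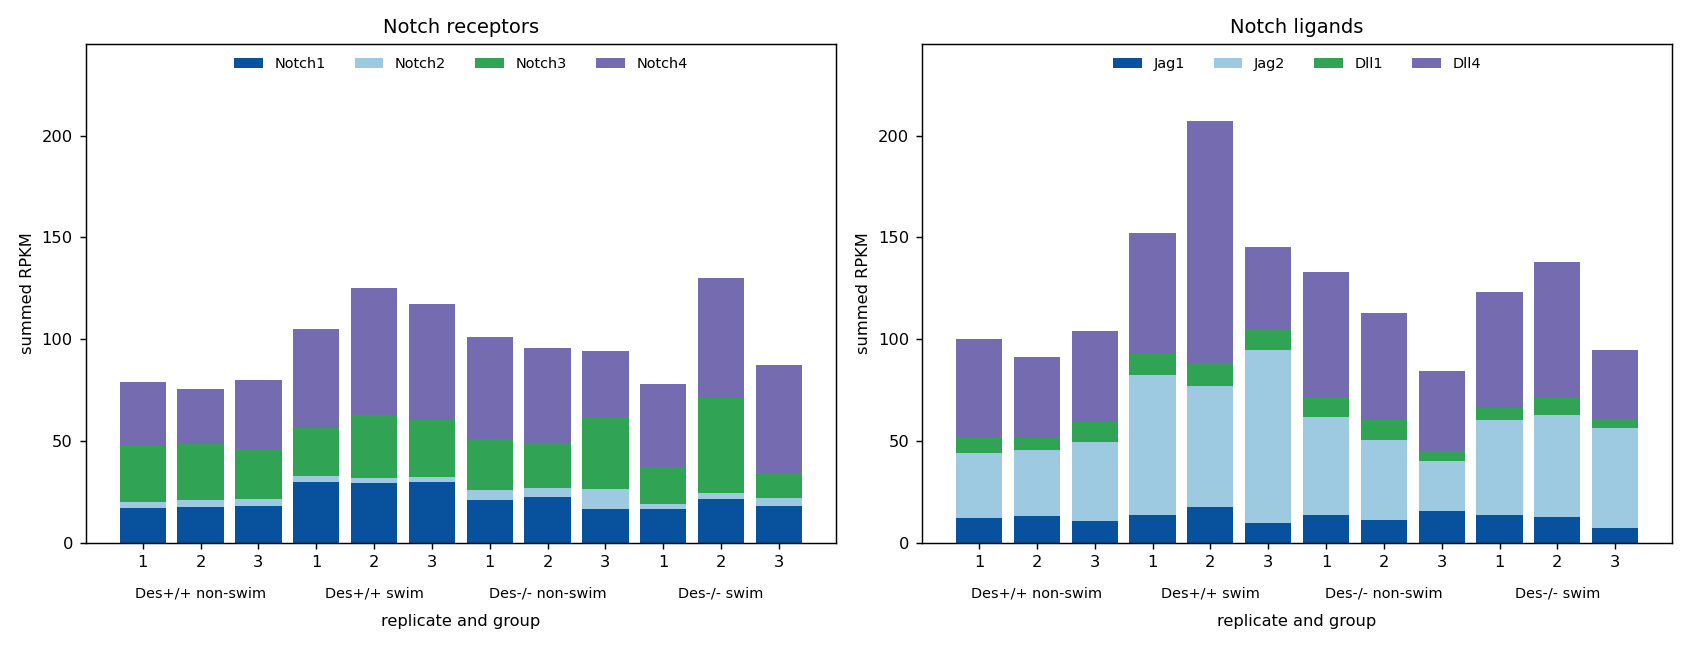
Summed RPKM of the 4 Notch receptors (left) and 4 ligands (right) in each of the 12 libraries, stacked by gene, with replicate number and group on the horizontal axis. The Des+/+ swim libraries have receptor sums of 105.0 to 125.3 and ligand sums of 145.4 to 207.3 RPKM, above all 3 Des+/+ non-swim libraries.

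The study measured Notch1 RNA and protein in adult hearts, and it also named Notch2 and Notch3 in its adult RNA-seq results. Notch1 had 240.4, 247.5 and 259.8 CPM in Des+/+ non-swim replicates 1 to 3 and 425.5, 416.5 and 423.1 CPM in Des+/+ swim. It had 300.4, 318.5 and 235.3 CPM in Des-/- non-swim and 235.3, 307.9 and 253.4 CPM in Des-/- swim. The 3 Des+/+ swim libraries were above the other 9, which overlapped between the genotypes and, within Des-/-, between the exercise groups.

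Notch4, the endothelial receptor, had 250.9, 218.0 and 274.1 CPM in Des+/+ non-swim and 392.0, 505.6 and 460.5 CPM in Des+/+ swim. It had 404.1, 375.2 and 263.7 CPM in Des-/- non-swim and 328.2, 474.1 and 428.0 CPM in Des-/- swim. The 2 Des+/+ groups did not overlap, and of the Des-/- non-swim libraries only replicate 3 fell within the Des+/+ non-swim range.

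Notch2, a widely expressed receptor, had 33.2, 36.3 and 36.4 CPM in Des+/+ non-swim and 33.4, 27.8 and 28.3 CPM in Des+/+ swim. It had 52.6, 50.5 and 103.7 CPM in Des-/- non-swim and 28.7, 27.8 and 47.0 CPM in Des-/- swim. All 3 Des-/- non-swim libraries were above the other 9, and in both Des-/- groups replicate 3 was the highest library.

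Notch3, the mural cell receptor, had 225.9, 225.7 and 198.4 CPM in Des+/+ non-swim, 189.3, 248.9 and 226.0 CPM in Des+/+ swim, 200.9, 176.8 and 287.5 CPM in Des-/- non-swim and 144.0, 381.0 and 99.0 CPM in Des-/- swim. Its groups all overlapped, and it had the largest ratio of highest to lowest library of the 8 (3.85), with the lowest and the highest library both in Des-/- swim. The mural marker sum moved with it there, at 3311, 5999 and 2837 CPM in the same 3 libraries. Its part in the spread of Notch3 was not tested.

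Jag2, a ligand of the Jagged class, had 221.6, 225.2 and 271.0 CPM in Des+/+ non-swim and 477.4, 415.6 and 593.3 CPM in Des+/+ swim. It had 335.2, 272.9 and 174.3 CPM in Des-/- non-swim and 322.8, 351.0 and 342.5 CPM in Des-/- swim. As with Notch1, the 3 Des+/+ swim libraries were above the other 9.

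The other 3 ligands overlapped between groups in all but 1 comparison. Dll4 ran from 153.7 to 185.7 CPM in Des+/+ non-swim, from 158.4 to 458.8 CPM in Des+/+ swim, from 152.5 to 236.8 CPM in Des-/- non-swim and from 131.6 to 254.8 CPM in Des-/- swim, its highest value coming from Des+/+ swim replicate 2 alone. Jag1, the other Jagged ligand, ran from 61.4 to 76.5 CPM in Des+/+ non-swim, 56.6 to 101.8 CPM in Des+/+ swim, 65.3 to 89.4 CPM in Des-/- non-swim and 41.4 to 80.6 CPM in Des-/- swim. Dll1, a Delta-like ligand, had 44.4, 46.8 and 39.6 CPM in Des+/+ swim and 25.9, 37.8 and 18.3 CPM in Des-/- swim, which did not overlap. It ran from 24.9 to 40.7 CPM in Des+/+ non-swim and from 19.2 to 42.2 CPM in Des-/- non-swim.

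**Figure D2:**
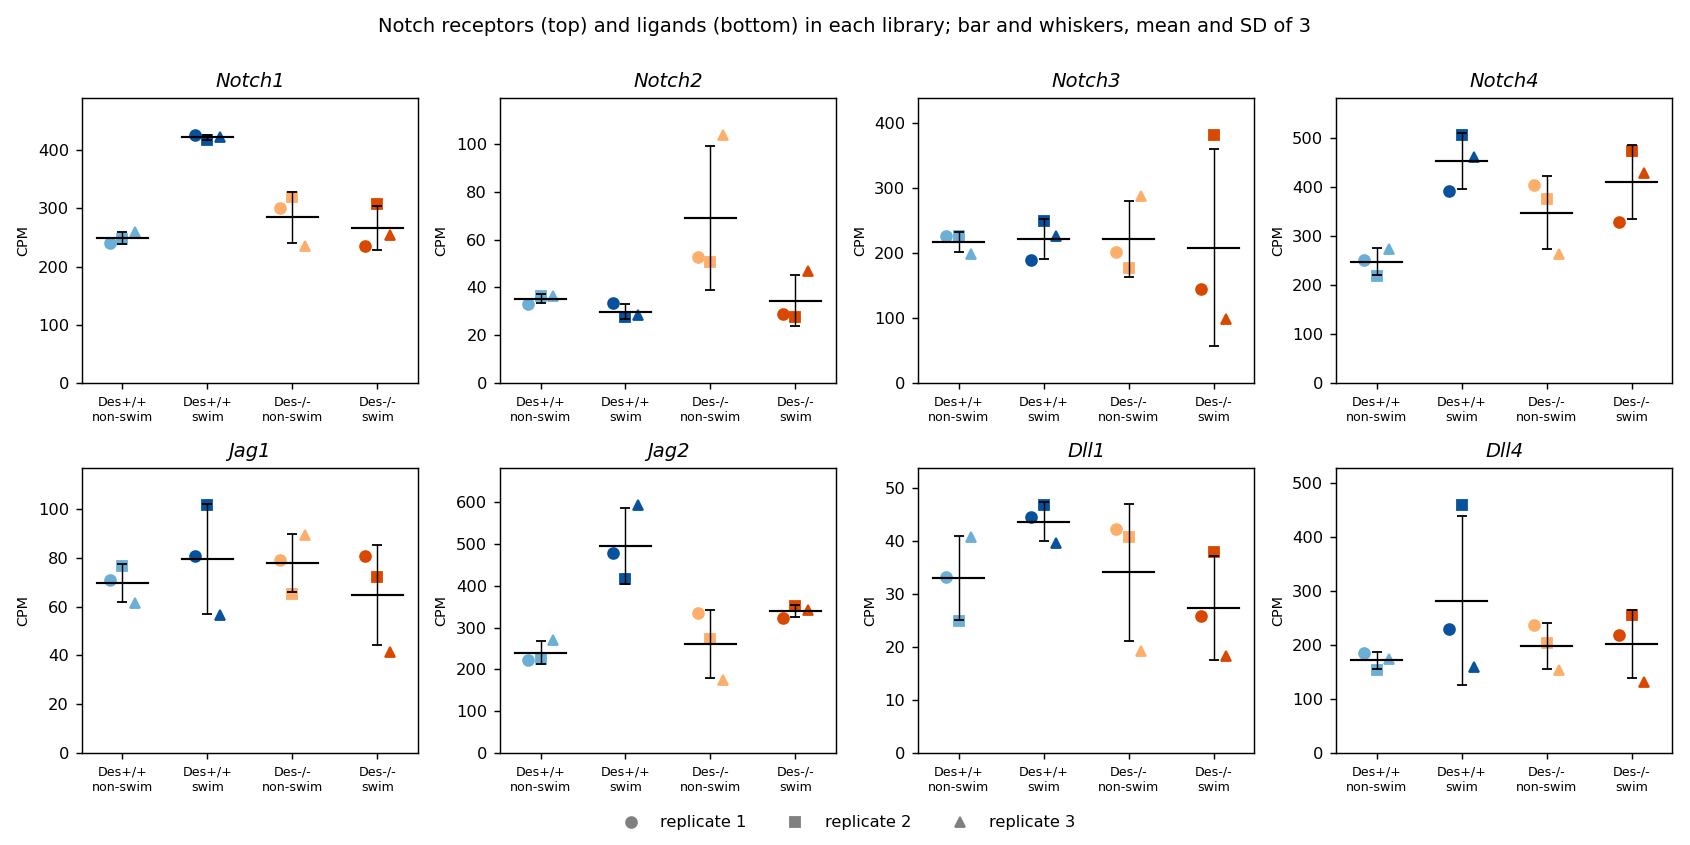
CPM of each receptor (top row) and ligand (bottom row) in each library, by group on the horizontal axis, with the mean and SD of 3 libraries and a symbol for each replicate number. Notch1 and Jag2 are highest in the 3 Des+/+ swim libraries (416.5 to 425.5 and 415.6 to 593.3 CPM), and Notch2 is highest in the 3 Des-/- non-swim libraries (50.5 to 103.7 CPM).

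Without swimming, Notch2 was the only member that passed the edgeR test between the genotypes. It was 1.95-fold higher in Des-/- (log2 change 0.97 ± 0.28, SE, edgeR adjusted p = 0.0205, n = 3 against 3, higher in 3 of 3 libraries). So 1 of 8 members passed, against 32% of all genes tested, and the libraries of 1 of 8 did not overlap between the groups, against 47.9% of all genes. The other 7 had positive estimates of 0.03 to 0.49 on the log2 scale, and the highest of these was Notch4 at 0.49 ± 0.20, with an interval from 0.05 to 0.93 (edgeR adjusted p = 0.0812), which DESeq2 called (adjusted p = 0.0442) along with 4790 of the 13158 genes. The interval for Notch1 ran from -0.14 to 0.52 around a log2 change of 0.19 (edgeR adjusted p = 0.352), and that for Jag2 from -0.36 to 0.61. The median log2 change was 0.18 over the 8 members and 0.04 over all genes.

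The Notch2 difference rested in part on 1 library. Without Des-/- non-swim replicate 3 its log2 change was 0.55 (edgeR adjusted p = 0.0758), and Notch4 passed instead at 0.66 (edgeR adjusted p = 0.0330). That fit called 2805 genes in all, in place of 4210. Without replicate 3 of both Des-/- groups, Notch2 passed at 0.62 (edgeR adjusted p = 0.00577) and Notch4 at 0.72 (edgeR adjusted p = 0.0192). Leaving out any 1 of the Des+/+ non-swim libraries left Notch2 between 0.92 and 0.98, with edgeR adjusted p between 0.0567 and 0.0614. In these fits between 2612 and 3417 genes passed in all. Fibroblast markers moved with Notch2, all 10 being higher in Des-/- non-swim with a median log2 change of 2.11. With their mean log2 level as a covariate, which differs strongly between the genotypes, the Notch2 estimate was -0.27 (edgeR adjusted p = 0.539), and 44 genes in all passed in place of 4210. Of the macrophage markers 8 of 10 were also higher, all 8 cardiomyocyte markers were lower (median log2 change -2.13), and 0 of 12 endothelial markers passed (median log2 change -0.06).

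After swimming, Notch1 was lower in Des-/- than in Des+/+. Its level was 0.630 times that in Des+/+ (log2 change -0.67 ± 0.15, SE, edgeR adjusted p = 0.0224, n = 3 against 3, lower in 3 of 3 libraries). That is 1 of 8 members, against 10.6% of all genes tested. The libraries of 3 of 8 members did not overlap, against 35.9% of all genes, all 3 lower in Des-/-. They were Notch1, Jag2 at -0.55 ± 0.22 (edgeR adjusted p = 0.122) and Dll1 at -0.68 ± 0.32 (edgeR adjusted p = 0.173). For Dll4 the log2 change was -0.48 with an interval from -1.25 to 0.29, and for Notch2 it was 0.21 with an interval from -0.40 to 0.82. The median over the 8 members was -0.39 and that over all genes 0.02.

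The direction of the Notch1 difference held with each library left out, at log2 changes from -0.79 to -0.59, but the call did not. It was lost without Des+/+ swim replicate 1 (edgeR adjusted p = 0.0583), Des+/+ swim replicate 3 (0.0747), Des-/- swim replicate 1 (0.0710) or Des-/- swim replicate 3 (0.0597). In these fits 561, 74, 505 and 664 genes passed in all, in place of 1392. DESeq2 called Notch1 with an adjusted p of 0.000294, and 2332 of the 13158 genes. Without replicate 3 of both Des-/- groups it passed at -0.63 (edgeR adjusted p = 0.0277). The endothelial markers, of which 0 of 12 passed here, had a median log2 change of -0.06 and the mural markers of -0.29. The cardiomyocyte markers had a median of -0.80, with 1 of 8 called, and the macrophage markers of 1.14, with 0 of 10 called. The fibroblast markers had a median of 1.25, with 2 of 10 called, and with their mean as a covariate Notch1 was at -0.47 (edgeR adjusted p = 0.110), and 863 genes passed in place of 1392.

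In Des+/+ mice, the estimates with swimming were highest for Jag2, Notch4 and Notch1, and the libraries of these 3 of 8 members did not overlap between the groups, against 31.3% of all genes. Jag2 was 2.07 times as high after swimming (log2 change 1.05 ± 0.22, SE, edgeR adjusted p = 0.0716), Notch4 1.83 times (0.87 ± 0.20, edgeR adjusted p = 0.0814) and Notch1 1.69 times (0.76 ± 0.15, edgeR adjusted p = 0.0627), each higher in 3 of 3 libraries. None of these passed at 0.05, so that edgeR called 0 of 8 members, against 0.0912% of all genes. At an unadjusted p under 0.05 there were 3 of 8 members and 20.5% of all genes. DESeq2 called these same 3 members and 812 of all 13158 genes, where edgeR called 12, with adjusted p of 4.0e-05 for Notch1, 0.00141 for Notch4 and 0.000385 for Jag2. They were also called by edgeR when only the Des+/+ libraries were fitted (adjusted p from 0.0286 to 0.0363, with 282 of 12548 genes called), and when Des-/- non-swim replicate 3, which is not in the comparison but shares its estimate of spread, was left out (155 of 13296 genes called). For Dll4 the log2 change was 0.72 with an interval from -0.05 to 1.49, and it was 0.18 without Des+/+ swim replicate 2. The median over the 8 members was 0.56 and that over all genes -0.08.

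Marker lists moved alongside. Cardiomyocyte markers had a median log2 change of -0.83 with swimming in Des+/+, with 0 of 8 called by edgeR, and sums of 50589 to 77678 CPM without swimming and 25218 to 42915 CPM after it, which did not overlap. For the endothelial markers the median log2 change was 0.54, with 0 of 12 called by edgeR, and their sum lay between 6815 and 8449 CPM without swimming and between 8610 and 12609 CPM after it. With the mean log2 level of the endothelial list as a covariate the log2 changes were 0.59 for Notch1 (edgeR adjusted p = 0.469), 0.44 for Notch4 (edgeR adjusted p = 0.546) and 0.77 for Jag2 (edgeR adjusted p = 0.507). In that fit 0 of 13158 genes passed. The covariate itself did not overlap between the 2 groups, at 8.80 to 9.14 without swimming and 9.18 to 9.67 after it, so the fit can hardly separate it from swimming.

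In Des-/- mice, Notch2 had the largest estimate with swimming, at 0.501 times its level without swimming (log2 change -0.998 ± 0.278, SE, edgeR adjusted p = 0.187, lower in 3 of 3 libraries). Its libraries did not overlap between the groups, which held for 1 of 8 members and 19.4% of all genes. EdgeR called 0 of 8 members, against 0.0228% of all genes. At an unadjusted p under 0.05 there was 1 of 8 members and 16.7% of all genes, and DESeq2 called Notch2 with an adjusted p of 0.0444 and 339 of the 13158 genes, where edgeR called 3. The log2 change of Notch2 was -0.57 without Des-/- non-swim replicate 3 and -0.85, called with an edgeR adjusted p of 0.0297, without replicate 3 of both groups. Notch1 was at -0.10 with an interval from -0.43 to 0.23, Notch4 at 0.24 with an interval from -0.20 to 0.67, and Jag2 at 0.38 with an interval from -0.11 to 0.86. Fibroblast markers had a median log2 change of -0.93 and macrophage markers of -1.53 in this comparison, with 0 of 10 called in either list. Equal replicate numbers were taken to pair here, but the values above come from fits without pairing. With a block for replicate number over all 12 libraries, edgeR called 0 members and 2 genes in all. That block took a shared replicate effect for both genotypes, so it is not a paired fit of Des-/- alone.

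The swimming changes of the 2 genotypes were compared by their difference, the change in Des-/- minus the change in Des+/+. All 8 estimates were below 0, from -0.13 for Notch3 to -0.86 for Notch1, with a median of -0.68 against 0.03 over all genes. The 8 genes were measured in the same libraries, so that their signs are not independent. EdgeR called 0 of 8 members and 0% of all genes. For Notch1 the difference was -0.86 ± 0.21 with an interval from -1.32 to -0.39 (edgeR adjusted p = 0.199), and it lay between -0.98 and -0.77 with each library left out. For Notch4 it was -0.63 with an interval from -1.25 to -0.01 (edgeR adjusted p = 0.299). At an unadjusted p under 0.05 there were 2 of 8 members and 16.3% of all genes. DESeq2 called Notch1, with an adjusted p of 0.00765, and 328 of the 13158 genes. The estimate for Notch3 turned to 0.37 without replicate 3 of both Des-/- groups.

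**Figure D3:**
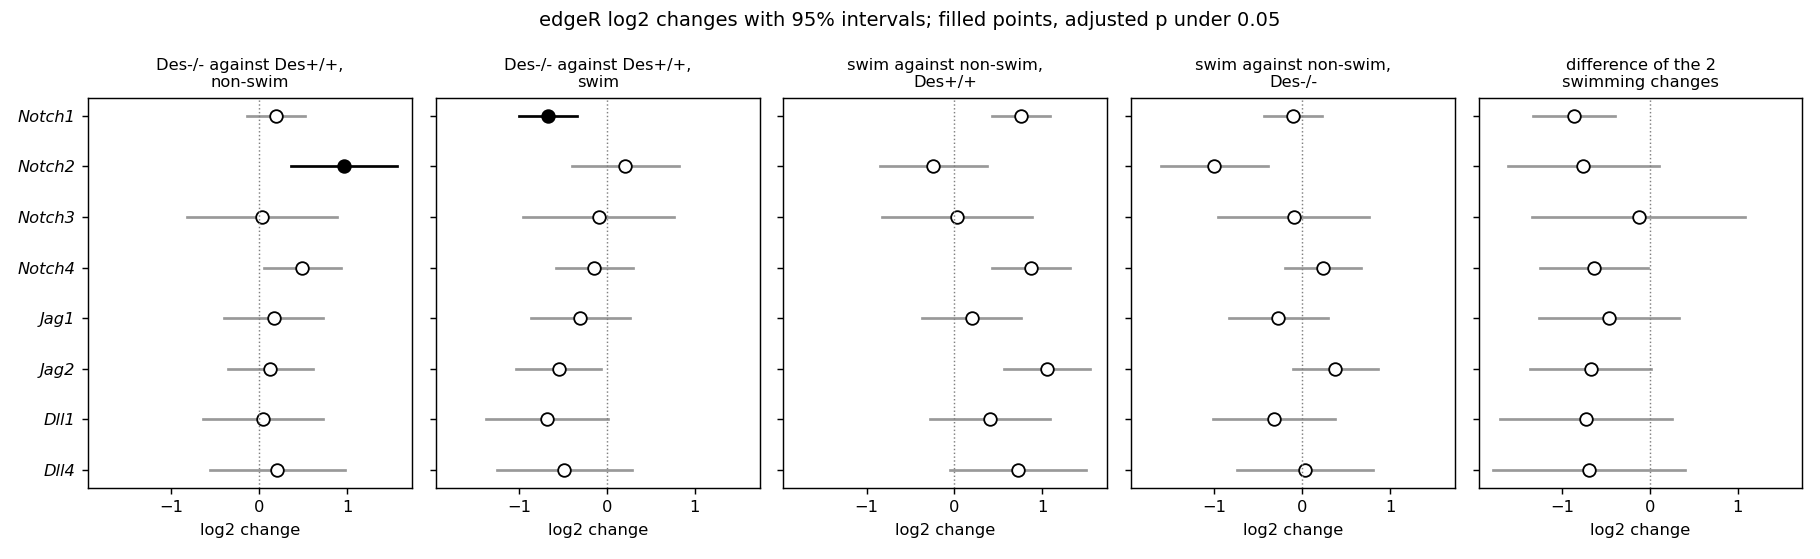
Log2 changes of the 8 members from edgeR with 95% intervals in each of 4 comparisons and in the difference of the swimming changes (Des-/- minus Des+/+), filled where the adjusted p was under 0.05. The filled points are Notch2 without swimming (0.97) and Notch1 after swimming (-0.67), and all 8 points of the last panel lie below 0.

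The members most typical of vessels were also set against the endothelial marker sum of the same library. Notch4 amounted to 2.97% to 3.64% of that sum in Des+/+ non-swim and to 4.01% to 4.71% in Des+/+ swim, with no overlap. In Des-/- non-swim it was 4.43% to 4.85%, again above all 3 Des+/+ non-swim libraries, and in Des-/- swim it was 3.43% to 5.13%. For Notch1 the range was 2.85% to 3.63% in Des+/+ non-swim and 3.30% to 4.94% in Des+/+ swim, which overlapped. Notch1 was at 3.42% to 4.12% in Des-/- non-swim and at 2.46% to 3.04% in Des-/- swim, and the latter lay below all libraries of Des+/+ swim and of Des-/- non-swim. Jag2 was at 2.62% to 3.60% in Des+/+ non-swim and 3.30% to 6.07% in Des+/+ swim, which overlapped through Des+/+ swim replicate 2. In Des-/- libraries Jag2 was at 2.93% to 3.81% without swimming and 3.19% to 4.11% after it. Dll4 was at 2.198% to 2.306% in Des+/+ non-swim and 2.56% to 2.69% in Des-/- non-swim, with no overlap. It was at 1.62% to 3.64% in Des+/+ swim and 1.58% to 2.32% in Des-/- swim. These ratios were not tested, and the share of all genes that do not overlap on such a ratio was not computed. In plain CPM that share was 31.3% for swimming in Des+/+ and 19.4% for swimming in Des-/-. Between the genotypes it was 47.9% without swimming and 35.9% after it.

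**Figure D4:**
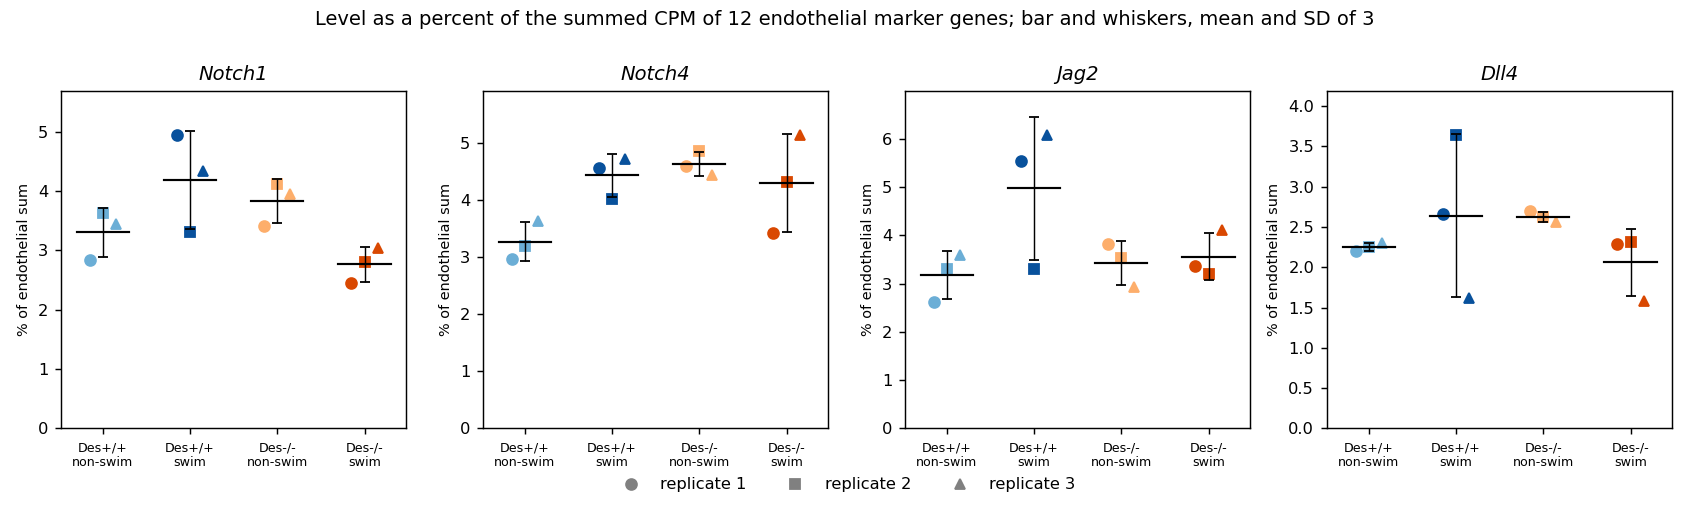
Notch1, Notch4, Jag2 and Dll4 in each library as a percent of the summed CPM of 12 endothelial marker genes, by group, with the mean and SD of 3 libraries. Notch1 has its lowest mean in Des-/- swim (2.46% to 3.04%), which overlaps Des+/+ non-swim (2.85% to 3.63%). Notch4 lies at 2.97% to 3.64% in Des+/+ non-swim against 4.01% to 4.71% in Des+/+ swim.

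Of 43 other genes of the pathway, 39 passed the filter. Without swimming 4 were higher and 1 lower in Des-/-, which is 12.8% of those tested against 32% of all genes. The largest change among these 5 was that of Numbl, which encodes a relative of the Notch inhibitor Numb, at a log2 change of 1.45 ± 0.21 (15.5 against 42.6 CPM on average, edgeR adjusted p = 0.00112). Dtx4, a Deltex ubiquitin ligase, was higher by 1.06 (edgeR adjusted p = 0.00764), the coactivator Maml2 by 0.60 (edgeR adjusted p = 0.0467) and Pofut1, which adds fucose to the receptors, by 0.46 (edgeR adjusted p = 0.0309). Fbxw7, part of the ligase that clears the receptors' intracellular domain, fell by 0.65 on the log2 scale (edgeR adjusted p = 0.0121).

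After swimming 3 of 39 passed, 1 higher and 2 lower in Des-/-, which is 7.69% against 10.6% of all genes. Numbl was again higher, by 1.24 (edgeR adjusted p = 0.0124). Furin, the protease that matures the receptors, was at -0.66 (edgeR adjusted p = 0.0267), and Nrarp, a target gene and feedback inhibitor, at -0.90 ± 0.24 (edgeR adjusted p = 0.0369). Nrarp averaged 78.7 CPM in Des+/+ non-swim, 155.2 CPM in Des+/+ swim, 86.6 CPM in Des-/- non-swim and 83.4 CPM in Des-/- swim, so its highest group was, as for Notch1, Des+/+ swim. The other tested target genes, Hes1, Hey1, Hey2 and Heyl, did not pass in any comparison, with log2 changes after swimming between -0.77 for Hey1 and 0.23 for Hes1. How the pathway calls of either genotype comparison depend on single libraries was not tested.

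EdgeR called 0 of the 39 for swimming in either genotype and for the difference. Nrarp was at 0.98 with swimming in Des+/+ (edgeR adjusted p = 0.0879) and at -0.06 in Des-/-. Mib1, the ligase that activates the ligands, and Fkbp1a, a gene the study links to trabeculation, passed in none of the 5 comparisons. Mib1 was at -0.39 (edgeR adjusted p = 0.133) and Fkbp1a at -0.11 (edgeR adjusted p = 0.686) between the genotypes after swimming. Dll3, Dlk1, Dlk2 and Hes5 were below the filter, with averages of at most 1.32 CPM in any group.

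The genes whose profile over the 12 libraries lay nearest to each member were found by the root mean square (RMS) difference of centred log2 CPM, a description in which the 12 points share their libraries. Among the members themselves the nearest pairs were Notch1 and Notch4 (0.27), Notch1 and Jag2 (0.28) and Notch4 and Jag2 (0.28). Outside the family Notch1 was nearest to Wasf2 (RMS difference 0.12), Myo1c (0.14) and C2cd2l (0.14), against a median of 0.49 over the 12157 genes compared. For Notch4 they were Cdc42ep2 (0.11), Mxd4 (0.12) and Prkd2 (0.13). For Jag2 they were Nos3 (0.16), the endothelial nitric oxide synthase, Dbndd2 (0.16) and Id1 (0.17). Notch2, the member farthest from the rest, was nearest to Aldh18a1 (0.17), Colec12 (0.17) and Pdgfra (0.18), the last being on the fibroblast list. Notch3 was nearest to Aoc3 (0.20), Tbc1d30 (0.25) and Cspg4 (0.25), the last being on the mural list. For Dll4 they were Prdm10 (0.20), Mmrn2 (0.21) and Map3k11 (0.22), for Dll1 they were Dusp7 (0.16), Traf3ip1 (0.16) and Tcf15 (0.19), and for Jag1 they were Zfyve1 (0.14), Zfp36l1 (0.16) and Armc6 (0.17).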

How the data were processed

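Polyadenylated RNA of 12 libraries was sequenced as single-end reads. The authors aligned them to GRCm38 with HISAT2 (2.2.1), handled the alignments with SAMtools (1.13) and counted reads per gene with HTSeq on the reverse strand, and the deposited values are raw counts. Reads in no gene (34.0% to 64.5% of uniquely placed reads) were left out.

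Genes were filtered (filterByExpr), scaled (TMM) and fitted with 4 group means over all 12 libraries in edgeR (4.0.16, R 4.3.3) by its quasi-likelihood test, with Benjamini-Hochberg adjustment over 13158 genes, called under 0.05. DESeq2 (1.42.0) was an alternative, whereas the study used DESeq2 (1.40.2) with its own cut-offs. The alternative named the study's filter put those cut-offs on the edgeR results. They were an unadjusted p of at most 0.05, a log2 change of at least 0.6 either way and a mean count of at least 20. Other alternatives were scalings, filters, a fit on the compared libraries, a replicate block, marker covariates and leaving out libraries. P-values measure the spread between pools of mice. The test was run on data simulated from these counts, with 200 genes changed in Des-/- non-swim alone. Far fewer genes changed there than were called between the genotypes here, so the simulation does not check these calls. RPKM used GENCODE M21 merged exons. Named genes were the 8 members, the 3 nearest genes of each by RMS difference (log2 CPM with a prior count of 2, mean count at least 20), pathway genes called, Mib1 and Fkbp1a, and the leading markers. Members and lists were chosen with earlier results of these data known.

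Equal replicate numbers were checked for pairing by the correlation of their deviations from group means. For swimming in Des-/- it was 0.365, 0.316 and 0.602, so the numbers were taken to pair there. The main fit did not use this pairing, and the replicate block was fitted over all 12 libraries of both genotypes. For swimming in Des+/+ it was -0.41, -0.257 and 0.006, and in both genotype comparisons at least 1 pair was under 0.1. A paired fit of the Des-/- libraries alone was not made. The labels name a library kit that does not mark strand and the methods one that does. Antisense genes overlap Notch1, Notch3, Dll1 and Dll4. Opposite-strand genes that share at least 300 exon bases were compared in each direction. A comparison needed at least 1000 reads expected from the first gene, and at least 0.3 of that gene's exon length shared. In 37 of 92 such comparisons the partner had under 0.5 times the reads that an unstranded library would add, the lowest 0.000408 times.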

Additional observations from a re-analysis of the deposited data

How the results depend on the processing

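With 3 libraries a group, counts of called members turned on single libraries and on the tool. Without swimming the main fit called 1 member and 4210 genes in all. Notch2 and Notch4 were both called with upper-quartile scaling (4526 genes), DESeq2 (4790 genes) and the endothelial covariate (4151 genes). The same 2 were called with replicate 3 of both Des-/- groups left out (3703 genes). With library totals only 3 members were called (5313 genes), and with the fibroblast covariate 0, under which 44 of 13158 genes passed. After swimming, against 1, 0 were called with library totals only or the fibroblast covariate (1554 and 863 genes in place of 1392). For swimming in Des+/+, against 0, 3 were called with DESeq2, the study's filter, the libraries compared alone, the fibroblast covariate or replicate 3 of both Des-/- groups left out, which called 812, 1358, 282, 814 and 743 genes in all in place of 12. For swimming in Des-/-, against 0, 1 was called with DESeq2, the study's filter or those 2 libraries left out (339, 1132 and 72 genes in place of 3), and for the difference DESeq2 called 1 (328 genes in place of 0). The fibroblast covariate and leaving out both replicate 3 libraries were chosen after seeing the data. With 1 library left out the counts ran from 0 to 1 without swimming, 0 to 2 after swimming, 0 to 3 for swimming in Des+/+ and 0 to 0 for swimming in Des-/- and the difference. Over all genes the same fits called 2612 to 4590 without swimming, 74 to 2142 after swimming and 0 to 155 for swimming in Des+/+. They called 0 to 51 for swimming in Des-/- and 0 for the difference.

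The replicate block changed no call of a member (Notch2 without swimming 0.90, Notch1 after swimming -0.67) and turned the sign of Dll1 without swimming (-0.038) and of Dll4 for swimming in Des-/- (-0.0048). The endothelial covariate turned Notch2 (0.30), Notch3 (-0.16), Dll1 (-0.20) and Dll4 (-0.0435) for swimming in Des+/+, and Notch4 (-0.10) and Dll4 (-0.54) for swimming in Des-/-. The fibroblast covariate turned Notch2 without swimming (-0.27), Notch2 (-0.50), Notch3 (0.10), Notch4 (0.056) and Dll4 (0.16) after swimming, Notch3 for swimming in Des+/+ (-0.018) and Dll4 for swimming in Des-/- (-0.61). Without replicate 3 of both Des-/- groups, Notch3 turned without swimming (-0.13), after swimming (0.24), for swimming in Des-/- (0.49) and in the difference (0.37), as did Notch2 after swimming (-0.070) and Jag1 for swimming in Des-/- (0.10). Notch3 after swimming was 0.0053 with upper-quartile scaling and 0.047 with library totals only, settings that moved the median of all genes in that comparison from 0.02 to 0.115 and 0.165, and without swimming from 0.04 to 0.141 and 0.295. With 1 library left out, signs turned without swimming for Notch3 (-0.19 to 0.17), Jag2 (-0.10 to 0.35) and Dll1 (-0.15 to 0.33), after swimming for Notch2 (-0.081 to 0.34), Notch3 (-0.87 to 0.24) and Dll4 (-0.77 to 0.058), for swimming in Des+/+ for Notch3 (-0.063 to 0.13) and Jag1 (-0.021 to 0.39), for swimming in Des-/- for Notch3 (-0.87 to 0.24) and Dll4 (-0.17 to 0.26), and in the difference for Notch3 (-0.90 to 0.21). The cause was not tested for any of these.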
